A study of Homo sapiens with 12 samples.

Results

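The 2 cell lines of this series were compared while both carried a sponge against the microRNA miR-16: 3 arrays labelled RPMI8226 were set against 3 labelled MMS1. These 6 arrays were among the 12 Affymetrix expression arrays of the series and were chosen by their labels alone. The other 6 arrays, 3 per line, came from the same lines with a control mock sponge and served as a second, separate comparison of the lines. All 54613 probe sets that are not Affymetrix controls were tested, and they gave 19775 named genes.

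Per the labels, RPMI8226 and MMS1 are multiple myeloma lines, a cancer of antibody-secreting plasma cells. Every group, the controls included, was transduced with a lentivirus carrying GFP, and the virus of the 6 arrays compared here also carried miR-16 binding sponges. The cells were sorted by flow cytometry and expanded, and were lysed together after a week in parallel flasks. The same groups are also called miR16 KO, knock down or siRNA in some labels, and the line RPMI8226 is written RPMI or RPMI826. The labels give neither the promoter that drives the sponge nor whether a line was 1 clone, and they do not tie an array to a flask, so p-values measure only the spread between these arrays. The study addressed cells that lose miR-16 through a deletion on 13q.

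MicroRNAs are short RNAs that guide Argonaute proteins to messenger RNAs, mostly through the seed near their 5′ end, and lower the stability or translation of those messages. A sponge is a transcript with repeated binding sites for a microRNA, which occupies it and frees its targets. MiR-16 is made from a gene next to that of miR-15a within DLEU2 on 13q and from a second copy beside miR-15b within SMC4, and is best known for restraining cyclins and BCL2. The mature microRNAs themselves were not analysed here.

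The sequences that a miR-16 sponge can be expected to touch by their seed are shown first, because the sponge is what both lines shared. Of 2545 mature entries in the RefSeq table (GRCh38.p14), 8 entries with 7 different names carry the seed of miR-16 at bases 2 to 8, which stands in capitals. Of the 7 names, 6 are printed and miR-6838-5p is named only. Sequences run 5′ to 3′.
hsa-miR-16-5p: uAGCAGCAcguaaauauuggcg
hsa-miR-15a-5p: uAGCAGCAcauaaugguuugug
hsa-miR-15b-5p: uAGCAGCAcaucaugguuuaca
hsa-miR-195-5p: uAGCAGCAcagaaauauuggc
hsa-miR-424-5p: cAGCAGCAauucauguuuugaa
hsa-miR-497-5p: cAGCAGCAcacugugguuugu
MiR-16-5p lies at chr13:50049027-50049048 on the minus strand (MIR16-1) and at chr3:160404754-160404775 on the plus strand (MIR16-2), and both genes give the same mature sequence. Its neighbours miR-15a at chr13:50049167-50049188 and miR-15b at chr3:160404607-160404628 share the seed and differ after it.

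The deposited values are log2 signals with a lower bound of 4, and a difference below is always RPMI8226 minus MMS1 on that scale, so 1 means 2-fold. The tissue named by the labels was checked first. On the 6 arrays, TNFRSF17 (BCMA, the plasma cell surface receptor) lay between 4.0 and 4.66 and JCHAIN, which joins secreted antibodies, between 4.0 and 4.5, at or near the lower bound. CD38 lay between 4.29 and 5.33, and IRF4, the plasma cell transcription factor, between 6.30 and 6.60. SDC1 (CD138) and XBP1, which other secreting and epithelial cells also make, were above the bound, at 8.88 to 9.35 and 8.37 to 8.78. Globin genes of embryonic red cells were well above that bound: HBE1 lay between 13.80 and 14.22 and HBZ between 12.05 and 13.04, with the red cell factor GATA1 between 9.27 and 9.46. In arrays of either label TNFRSF17 and JCHAIN were thus at or near the lower bound. MZB1 lay between 5.02 and 5.82, PRDM1 between 5.72 and 6.45 and SLAMF7 between 6.24 and 7.12. The markers well above the bound, SDC1 and XBP1, are also made by other cells. Summed linear signal of the 10 immunoglobulin genes was 801 to 891 in RPMI8226 and 861 to 956 in MMS1. For 7 globin genes it was 37144.5 to 38412.7 and 26121.4 to 27725.8. Whether the cells were those named by the labels was not tested. Of 23 plasma cell genes and 10 immunoglobulin genes 1 (JCHAIN) and 0 had a mean under 4.5 in both lines. Few genes of any kind did, 527 of all 19775 and 0 of 14 B cell genes, so that count does not show which genes were expressed. The names RPMI8226 and MMS1 are used below as the labels give them. Of 23 plasma cell genes measured, 0 were called higher and 1 lower between the lines, of 10 immunoglobulin genes 0 and 2, and of 14 B cell genes 0 were called either way, by limma's test at an adjusted p under 0.05. That is 4.35%, 20% and 0% called, against 20.6% of all genes. These calls were not stable: with brighter probe sets alone 3 of 15 plasma cell genes were called higher, SDC1 and XBP1 among them, and with the 6 sponge arrays alone 0 plasma cell and 0 immunoglobulin genes were lower. At an unadjusted p under 0.05 that test passed 6602 of all 19775 genes.

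Arrays of 1 group resembled each other closely, with correlations over probe sets of 0.974 to 0.983 within the MMS1 sponge group and 0.981 to 0.983 within the RPMI8226 sponge group, against 0.951 to 0.963 between the lines. Replicate 1 of the MMS1 sponge group stood apart: its 18S ribosomal RNA probe sets averaged 7.84, while the other 11 arrays read 9.56 to 11.14. Totals without that array are given beside the main ones, and a call is said to have held when it passed with the same sign in each of 12 alternative fits, among them those that leave out each sponge array in turn. With 3 arrays a group, a line difference had a standard error of 0.14 at the median probe set.

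With the miR-16 sponge in both lines, 2413 genes were higher in RPMI8226 and 1657 lower, 20.6% of the genes tested (12.2% higher and 8.38% lower; limma, adjusted p under 0.05). Most of the differences were small: 226 genes (1.14%) were called and at least 2-fold higher and 152 (0.769%) at least 2-fold lower, and 12 and 22 passed 4-fold. The 3 arrays of one line lay all above the 3 of the other for 37.2% of genes. Of the called genes, 1088 higher and 778 lower held in every alternative fit, and without MMS1 sponge replicate 1 the totals were 2378 and 1246. The median difference over all genes was 0.06, and quantile normalization brought it to 0.02. A fit of the brighter probe sets alone called 2829 genes higher and 1913 lower of 13062, a larger share than 20.6%. Lists of bright genes are thus set against a low background below, and the part of signal level in their shares called was not tested. As these are bulk samples, fewer cells of a kind and less RNA per cell cannot be told apart in any of these differences.

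The 6 control sponge arrays compare the same lines without the miR-16 sponge. There 1289 genes (6.52%) were higher in RPMI8226 and 752 (3.8%) lower, together 10.3% of genes, and under quantile normalization 1212 and 1114. Of the 2413 genes higher in RPMI8226 with the miR-16 sponge, 644 (26.7%) were also called higher on the control arrays, which is 49.96% of the 1289 called there, and 65 were called lower. Of the 1657 lower genes, 349 (21.1%) were also called lower on the control arrays, 46.4% of the 752 called there, and 78 were called higher. The difference between these line differences, the interaction, was called for 1167 genes, 5.9% of those tested. Over all genes, the MMS1 sponge and control arrays differed for 2455 genes (12.4%) and the RPMI8226 ones for 43 (0.217%).

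**Figure D1:**
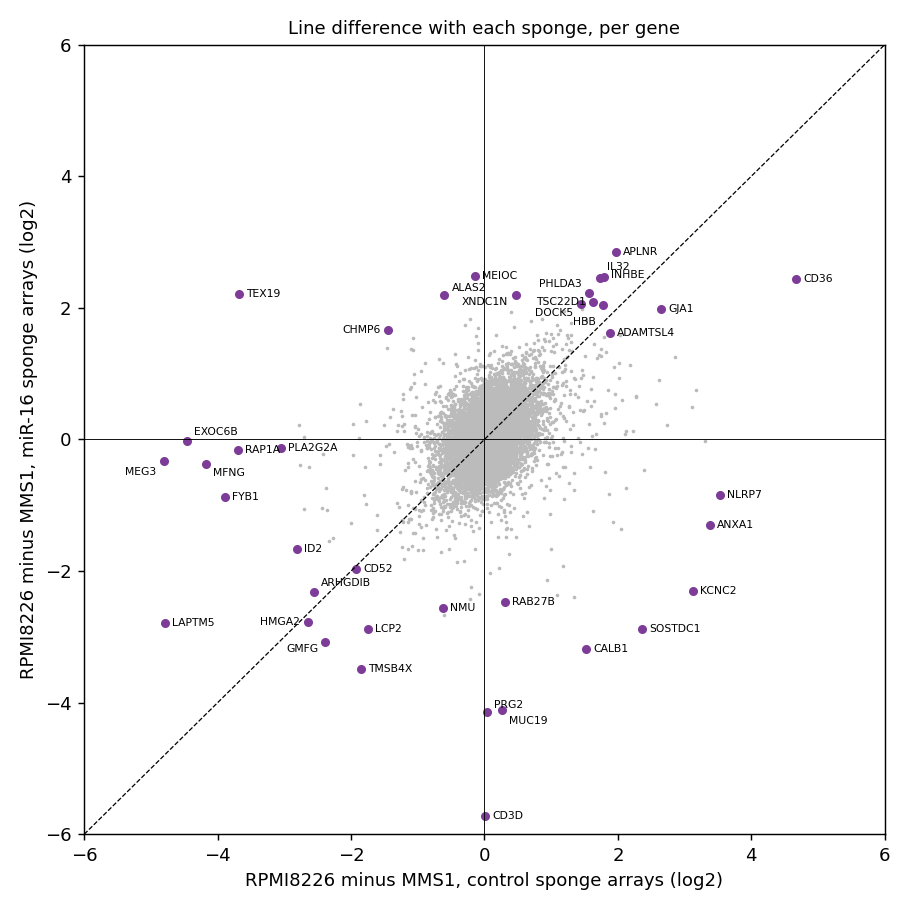
Line difference of each gene (RPMI8226 minus MMS1, log2) with the miR-16 sponge on the y axis against that with the control sponge on the x axis; grey points are all 19775 genes, purple points are genes with the largest line differences and interactions, and the dashed line marks equal differences. HBB, GMFG and HMGA2 lie near the dashed line, TEX19 and CHMP6 were higher with one sponge and lower with the other, and CD3D, PRG2 and MUC19 differed by more than 4 with the miR-16 sponge and by less than 1 with the control sponge.

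The genes with the largest positive differences were a mixed group of receptors, secreted factors and red cell genes. APLNR, the receptor of the peptide apelin, led them, with 8.64, 8.63 and 8.65 on the RPMI8226 sponge arrays and 6.0, 5.76 and 5.64 on the MMS1 ones. Its difference was 2.84 ± 0.12 (SE; adjusted p = 2.21e-08), and on the control arrays 1.97 (adjusted p = 4.16e-07). INHBE, a subunit of activins induced by amino acid shortage, read 8.36, 8.33 and 8.24 against 5.79, 5.91 and 5.81, a difference of 2.47 (adjusted p = 2.21e-08). IL32, a proinflammatory cytokine, read 9.82, 9.69 and 9.81 against 7.56, 7.24 and 7.18, a difference of 2.45 (adjusted p = 3.32e-08). Both were also higher in RPMI8226 on the control arrays, by 1.79 and 1.73. For these 3 genes no array of one line reached the range of the other.

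CD36, the fatty acid and thrombospondin receptor carried by early red cells, read 10.03, 9.94 and 9.77 in RPMI8226 and 7.65, 7.36 and 7.43 in MMS1. The difference of 2.43 ± 0.14 (adjusted p = 2.37e-07) was smaller than that of 4.68 on the control arrays, and the interaction was called (adjusted p = 2.27e-05). PHLDA3, a p53 target that restrains AKT, differed by 2.23 with the miR-16 sponge and 1.57 with the control sponge. TSC22D1, a transcription factor induced by TGF-beta, differed by 2.08 and 1.62. GJA1, the gap junction protein connexin 43, differed by 1.99 and 2.64, and ADAMTSL4, a secreted matrix protein, by 1.62 and 1.88. These 4 were thus higher in RPMI8226 with either sponge, each called on both sets of arrays on its brightest probe set. With the miR-16 sponge 1 of 2 PHLDA3 probe sets (range -0.14 to 2.23) and 1 of 4 TSC22D1 probe sets (range -0.34 to 2.08) were called. DOCK5 differed by 2.06 on its brightest probe set, but by 0.19 (adjusted p = 0.084) as the mean over its probe sets, so the call did not hold.

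Other high genes separated the lines only in part, or in the opposite way, with the control sponge. TEX19, a germ cell gene that guards against transposons, read 10.09, 10.03 and 9.90 in RPMI8226 and 7.90, 7.76 and 7.74 in MMS1 with the miR-16 sponge, but 8.22, 8.25 and 8.30 and 11.95, 11.90 and 11.97 with the control sponge. The line difference therefore went from -3.68 to 2.21, and the interaction of 5.88 (adjusted p = 4.88e-11) was the largest positive one of all named genes. MEIOC, a regulator of meiotic entry, was at or near the lower bound in MMS1 with the miR-16 sponge (4.0, 4.83 and 4.02) and read 6.63, 6.76 and 6.93 in RPMI8226. On the control arrays MEIOC read 6.91, 6.64 and 7.22 in MMS1 and 6.56, 6.83 and 6.95 in RPMI8226, ranges that overlapped. XNDC1N read 7.78, 7.88 and 7.62 against 5.55, 5.67 and 5.48, with 7.81, 7.95 and 7.92 against 7.26, 7.47 and 7.55 on the control arrays. For MEIOC and XNDC1N the MMS1 sponge arrays were the low ones among all 4 groups, and the interactions were 2.63 and 1.73 (adjusted p = 0.000192 and 3.25e-05). Of 5 MEIOC probe sets 1 was called with the miR-16 sponge (range -0.23 to 2.49).

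**Figure D2:**
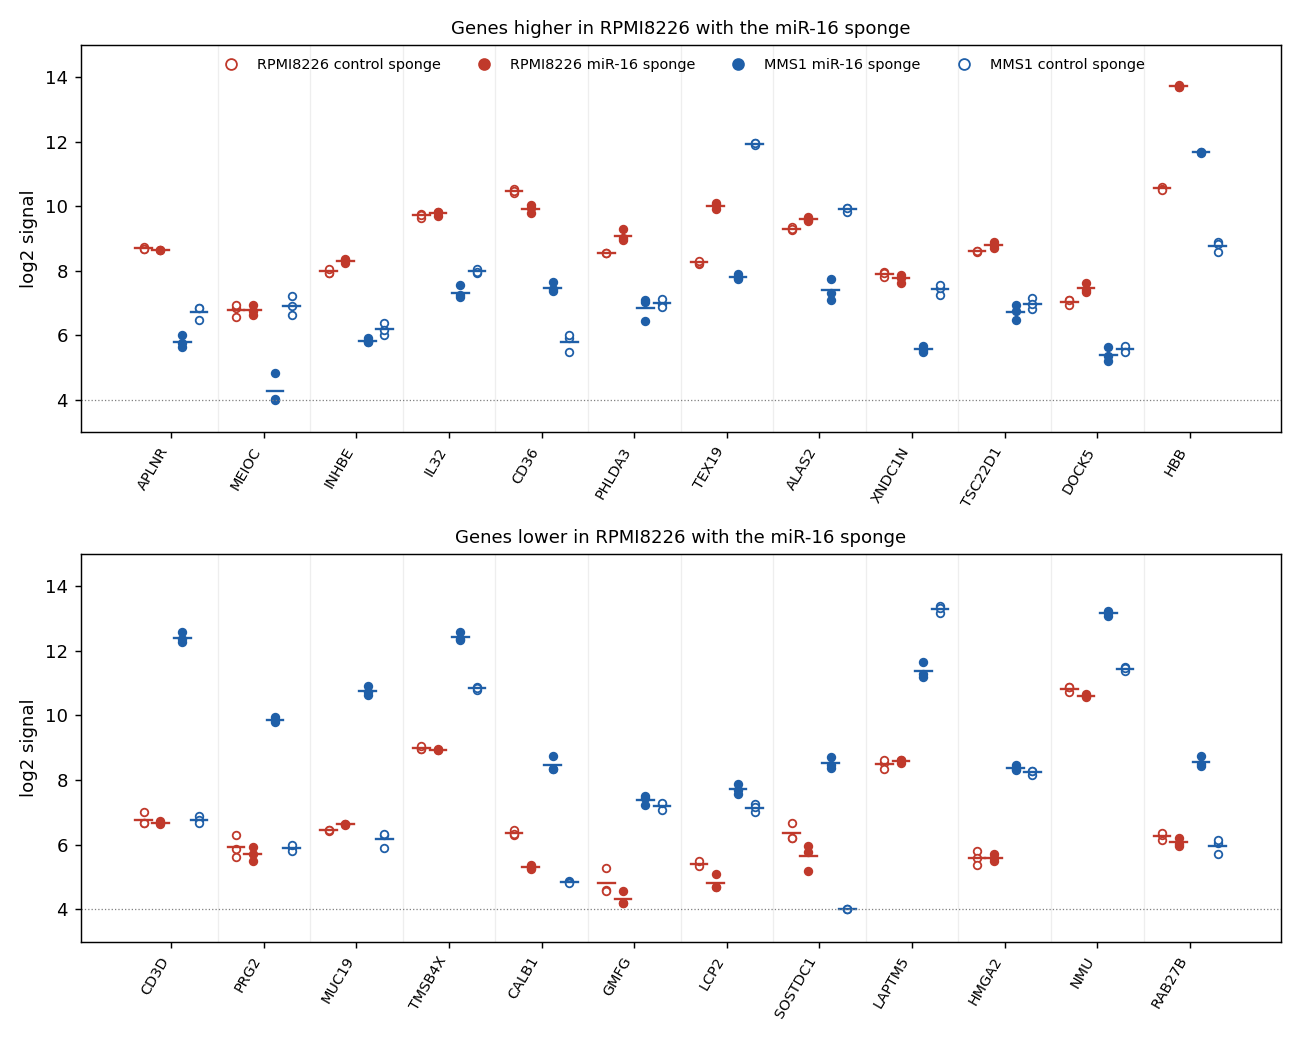
Log2 signal on each of the 12 arrays for the 12 genes with the largest line difference each way; filled points are miR-16 sponge arrays, open points control sponge arrays, red is RPMI8226, blue is MMS1, short bars are means of 3 arrays and the dotted line is the lower bound of 4. The filled red and filled blue points do not overlap for any of the 24 genes, and for CD3D, PRG2, MUC19 and RAB27B the filled blue points lie above all 9 others.

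The largest difference of all lay in the other direction. CD3D, the delta chain of the T cell receptor complex, read 12.58, 12.37 and 12.29 on the MMS1 sponge arrays and 6.63, 6.75 and 6.67 on the RPMI8226 ones, a 52.99-fold gap (-5.73 ± 0.12, SE; adjusted p = 2.24e-11). On the control arrays it read 6.88, 6.78 and 6.66 in MMS1 and 6.66, 6.66 and 7.01 in RPMI8226, so the 3 MMS1 sponge arrays were the only high ones among the 12. Its partners in the T cell receptor did not follow: CD3E differed by -0.01 (adjusted p = 0.979), CD3G by -0.13 (adjusted p = 0.765) and CD247 by -0.17 (adjusted p = 0.394). Of 25 T and NK cell genes measured, 3 were lower in RPMI8226 (CD3D, FYB1 and CD7), all of which held, and 1 was higher, which did not hold, together 16% against 20.6% of all genes.

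PRG2, the major basic protein of eosinophil granules, showed the same picture, with 9.95, 9.81 and 9.84 in MMS1 and 5.72, 5.51 and 5.92 in RPMI8226 with the miR-16 sponge and 5.90, 5.80 and 5.98 and 6.29, 5.63 and 5.86 with the control sponge. MUC19, a gel-forming mucin, read 10.90, 10.73 and 10.63 and 6.64, 6.62 and 6.65 with the miR-16 sponge. The differences were -4.15 and -4.12 (adjusted p = 5.41e-09 and 7.39e-10), against 0.03 and 0.27 on the control arrays. RAB27B, a small GTPase of granule release in platelets and other secreting cells, differed by -2.48 (adjusted p = 1.53e-07) and by 0.31 on the control arrays. NMU, the neuropeptide neuromedin U, read 13.23, 13.09 and 13.16 in MMS1 against 10.65, 10.61 and 10.56 in RPMI8226, a difference of -2.55, against -0.63 on the control arrays. The interaction was called for each of these 4 genes and for CD3D, with adjusted p from 1.25e-09 to 2.26e-06.

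A second set of low genes, made of leukocyte and cytoskeleton genes, separated the lines with either sponge. TMSB4X (thymosin beta 4, which binds actin monomers) read 12.59, 12.37 and 12.35 in MMS1 and 8.92, 8.97 and 8.94 in RPMI8226, a difference of -3.49 with the miR-16 sponge and -1.85 with the control sponge. LAPTM5, a lysosomal membrane protein of blood cells, read 11.66, 11.29 and 11.19 in MMS1 and 8.61, 8.54 and 8.62 in RPMI8226, and the gap was wider on the control arrays (-2.79 against -4.79; interaction adjusted p = 2.9e-05). LCP2 (SLP-76, an adaptor of immune receptors) differed by -2.89 and -1.74, and GMFG, an actin regulator of blood cells, by -3.07 and -2.39. CD52, a surface glycopeptide of lymphocytes, differed by -1.97 and -1.93. HMGA2, a chromatin protein of embryonic and tumour cells, differed by -2.78 and -2.65, nearly the same size with both sponges on its brightest probe set. With the miR-16 sponge 1 of 9 HMGA2 probe sets (range -2.78 to 0.26) and 2 of 6 LCP2 probe sets (range -2.89 to -0.01) were called. Genes with many near-identical copies, such as TMSB4X, may take signal from their relatives, which was not tested.

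For some genes the order of the lines turned. CALB1, a calcium-buffering protein, read 8.74, 8.35 and 8.35 in MMS1 and 5.37, 5.27 and 5.26 in RPMI8226 with the miR-16 sponge, and 4.87, 4.86 and 4.80 and 6.31, 6.46 and 6.34 with the control sponge. SOSTDC1, a secreted antagonist of BMP and WNT signals, read 8.72, 8.39 and 8.48 in MMS1 and 5.95, 5.79 and 5.20 in RPMI8226, while on the control arrays it stood at the lower bound in MMS1 (4.0, 4.0 and 4.0) and read 6.19, 6.21 and 6.68 in RPMI8226. The differences went from 1.53 to -3.18 for CALB1 and from 2.36 to -2.89 for SOSTDC1, the latter set in part by the lower bound. KCNC2, a potassium channel subunit, went from 3.12 to -2.31, ANXA1, a phospholipid-binding protein that dampens inflammation, from 3.37 to -1.31, and NLRP7, an inflammasome gene, from 3.52 to -0.84. Across these 5 genes the RPMI8226 means moved between the sponges by -1.07 (CALB1) to 0.34 (KCNC2), whereas the MMS1 means rose by 3.64 (CALB1) to 5.77 (KCNC2). KRT8, a simple epithelial keratin, did likewise, from 2.40 to -0.47, and CXCL8 (interleukin 8) went from 1.17 to -1.92. CHMP6, a subunit of the membrane-cutting ESCRT complex, turned the other way, from -1.45 to 1.66.

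In another group the lines came together on each gene's brightest probe set. MEG3, a long noncoding RNA of the imprinted DLK1 region, read 10.15, 10.51 and 10.71 in MMS1 and 5.85, 5.45 and 5.65 in RPMI8226 with the control sponge, but 5.68, 5.97 and 6.01 and 5.39, 5.67 and 5.62 with the miR-16 sponge. EXOC6B, of the exocyst, read 10.40, 10.36 and 10.37 and 5.84, 5.88 and 6.04 with the control sponge and 5.34, 6.13 and 5.21 and 5.41, 5.89 and 5.30 with the miR-16 sponge. With the miR-16 sponge the differences of -0.33 for MEG3, -0.03 for EXOC6B, -0.38 for MFNG (a glycosyltransferase acting on Notch), -0.16 for RAP1A (a small GTPase of adhesion) and -0.12 for PLA2G2A (a secreted phospholipase) missed the threshold (adjusted p from 0.159 to 0.953). Other probe sets differed: 1 of 10 for MEG3 (range -1.47 to 0.29) and 1 of 4 for RAP1A (range -0.52 to 0.56) were called lower with the miR-16 sponge. With the control sponge they were -4.81, -4.46, -4.17, -3.69 and -3.06. FYB1, an adaptor of T cells and platelets, kept part of its gap, with -0.88 against -3.89. The interactions ran from 2.93 for PLA2G2A to 4.48 for MEG3, and each was called and held.

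Since red cell genes were well above the lower bound on these arrays, the red cell lists were read next. Red cell formation is run by GATA1 with TAL1, LMO2, LDB1 and the cofactor ZFPM1 (FOG1), and by KLF1, which turns on adult beta globin, heme synthesis and membrane genes. Of 7 globin genes measured, 4 were higher in RPMI8226 with the miR-16 sponge and 1 lower, with a median difference of 0.86, against -0.11 on the control arrays and 0.06 over all genes. Of 22 red cell membrane genes, 11 were higher and 1 lower (median 0.32, and -0.01 on the control arrays), of which 7 of the higher held. With the 6 sponge arrays alone 7 membrane genes were higher. Of 16 heme synthesis genes, 7 were higher and 2 lower (median 0.25), of which 4 higher held. Of 15 erythroid transcription factors, 5 were higher, all of which held, and 4 lower, of which 2 held. Without MMS1 sponge replicate 1 the higher counts in these 4 lists were 4, 10, 6 and 5. With all arrays the shares called either way were, in that order, 71.4%, 54.5%, 56.25% and 60%, against 20.6% of all genes. By mean signal, 5 of the 7 globin, 10 of the 22 membrane, 12 of the 16 heme synthesis genes and 12 of the 15 factors lay above the upper quartile of all genes.

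Among the factors, KLF1 carried the largest gap. It read 9.63, 9.62 and 9.43 in RPMI8226 and 7.88, 7.96 and 8.11 in MMS1 with the miR-16 sponge (difference 1.58 ± 0.11, SE; adjusted p = 1.26e-06) and 9.78, 9.68 and 9.65 and 9.87, 9.69 and 9.94 with the control sponge, where the ranges overlapped. The MMS1 sponge arrays were the low ones, and the interaction of 1.70 was called (adjusted p = 2.73e-05). ZFPM1 read 8.16, 8.02 and 8.04 against 6.88, 7.0 and 7.08 (difference 1.09; adjusted p = 9.48e-06) and LDB1 7.74, 7.72 and 7.67 against 7.04, 7.06 and 7.08 (difference 0.65; adjusted p = 0.000277). GATA1 itself read 9.36, 9.39 and 9.46 against 9.40, 9.36 and 9.27, and its difference of 0.06 missed the threshold (adjusted p = 0.735). LMO2 was lower in RPMI8226, at -0.60 (adjusted p = 0.00268), and TAL1 was -0.48, a call that did not hold in every fit. With the miR-16 sponge 1 of 2 ZFPM1 probe sets (range 0.39 to 1.09) and 1 of 2 LMO2 probe sets (range -0.60 to -0.13) were called. The factors of 1 complex thus did not move together.

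The globins differed among themselves as well. HBB, the adult beta chain, read 13.67, 13.76 and 13.70 in RPMI8226 and 11.69, 11.64 and 11.68 in MMS1 with the miR-16 sponge, and 10.60, 10.53 and 10.51 and 8.58, 8.89 and 8.82 with the control sponge. Its line difference was 2.04 ± 0.10 (SE; adjusted p = 5.62e-08) with the one and 1.78 with the other, and the interaction missed the threshold (0.26; adjusted p = 0.375). HBD, the minor adult delta chain, read 10.71, 10.70 and 10.65 against 8.81, 8.64 and 8.68, a difference of 1.98, and 1.46 on the control arrays. HBZ, the embryonic alpha-like chain, read 12.94, 13.02 and 13.04 in RPMI8226 and 12.05, 12.16 and 12.20 in MMS1, a difference of 0.86 (adjusted p = 3.64e-05), but the control arrays had the opposite order, with 13.03, 13.01 and 12.99 and 14.13, 14.02 and 14.07 and a difference of -1.06. HBQ1, the theta chain, was 0.86 higher in RPMI8226 with the miR-16 sponge (adjusted p = 0.000477) and -0.20 with the control sponge. HBE1, the embryonic beta-like chain, read 13.80, 13.80 and 13.80 and 14.13, 14.20 and 14.22, a difference of -0.39 whose call was lost with the 6 sponge arrays alone (adjusted p = 0.0555) and as the mean over its probe sets (adjusted p = 0.119). Related globin transcripts can share probe signal, which was not tested.

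In heme synthesis the first step stood out. ALAS2, the red cell form of its first enzyme, read 9.66, 9.54 and 9.57 in RPMI8226 and 7.75, 7.11 and 7.32 in MMS1 with the miR-16 sponge, and 9.35, 9.26 and 9.29 and 9.96, 9.81 and 9.94 with the control sponge. The difference was 2.20 ± 0.14 (SE; adjusted p = 5.91e-07) with the first and -0.60 with the second, and the interaction 2.80 (adjusted p = 2.55e-06). UROD, uroporphyrinogen decarboxylase, was 0.99 higher in RPMI8226 and ABCB10, a mitochondrial transporter of red cells, 0.80 higher (adjusted p = 4.7e-05 and 0.000227). Among membrane genes, ERMAP, the Scianna blood group protein, read 8.38, 8.40 and 8.32 against 7.06, 6.56 and 6.39 and SPTB, the beta spectrin of the membrane skeleton, 7.41, 7.79 and 7.58 against 6.12, 6.68 and 6.65. Their differences were 1.70 and 1.11 with the miR-16 sponge and -0.09 and -0.06 with the control sponge (interaction adjusted p = 0.000175 and 0.00583). TMOD1, which caps actin in that skeleton, was 0.93 higher in RPMI8226 (adjusted p = 0.000213). Of 12 iron handling genes 3 were higher and 2 lower, or 41.7% called against 20.6% of all genes. Among them were TFRC, the transferrin receptor (0.94, and 1.45 on the control arrays), TFR2, an iron sensor (0.80), and NCOA4, which sends ferritin to degradation (-0.63). With the miR-16 sponge 1 of 2 SPTB probe sets (range 0.10 to 1.11) was called. So were 2 of 5 TFRC probe sets (range -0.08 to 0.94) and 1 of 3 TFR2 probe sets (range 0.16 to 0.80). Of 8 carbonic anhydrases 2 were lower, or 25% called, near the 20.6% of all genes. Among them was CA2, which speeds carbon dioxide transport in red cells (-1.31, and 0.67 on the control arrays).

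**Figure D3:**
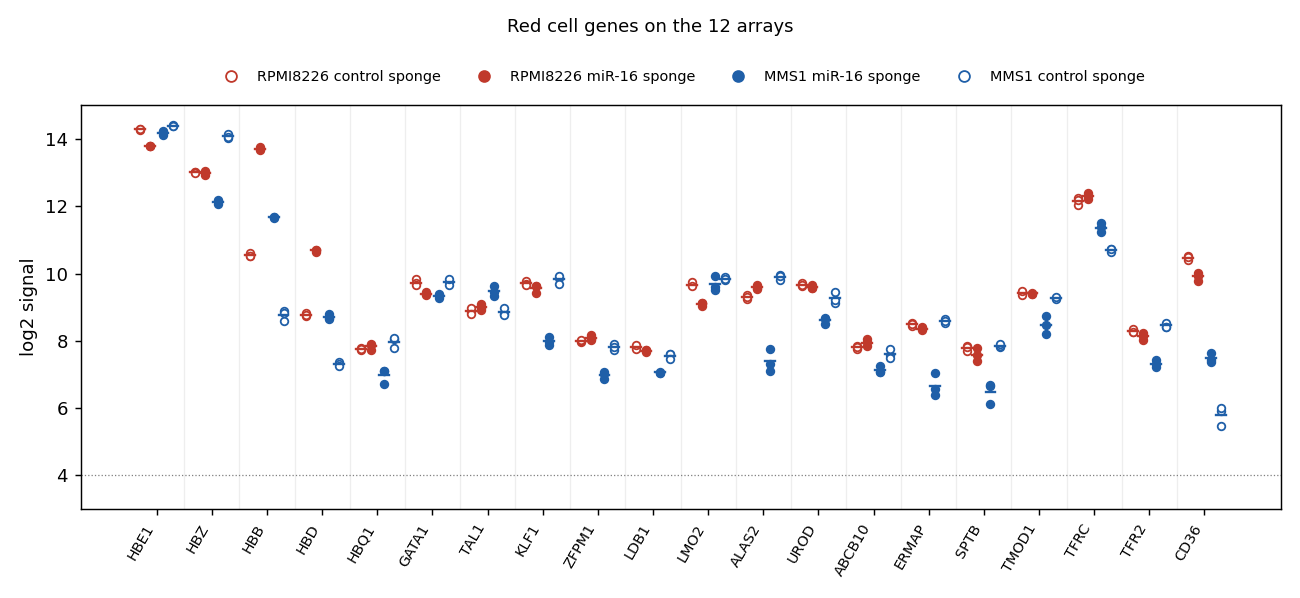
Log2 signal on each of the 12 arrays for 20 red cell genes; filled points are miR-16 sponge arrays, open points control sponge arrays, red is RPMI8226, blue is MMS1, short bars are means of 3 arrays and the dotted line is the lower bound of 4. For KLF1, ALAS2, ERMAP and SPTB the filled blue points (MMS1, miR-16 sponge) lie below the 9 others, whereas for HBB and HBD both filled groups lie above the open groups of their own line.

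The promoters of KLF1 and ALAS2 are printed because these genes moved together and because GATA factors bind the letters AGATAA or TGATAA. A search on both strands of the RefSeq windows (250 bases before to 50 after each start, GRCh38.p14) put such a match, in capitals, at -66 from the start of KLF1 and at -127 from that of ALAS2. KLF1 lies on the minus strand of chr19:12887152-12887451 and ALAS2 on the minus strand of chrX:55030928-55031227.
KLF1: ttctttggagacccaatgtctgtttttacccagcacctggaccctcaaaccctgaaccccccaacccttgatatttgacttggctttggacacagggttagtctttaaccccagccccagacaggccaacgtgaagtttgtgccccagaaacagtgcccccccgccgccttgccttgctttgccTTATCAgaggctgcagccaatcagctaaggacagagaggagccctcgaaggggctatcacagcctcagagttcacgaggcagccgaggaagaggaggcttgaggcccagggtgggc
ALAS2: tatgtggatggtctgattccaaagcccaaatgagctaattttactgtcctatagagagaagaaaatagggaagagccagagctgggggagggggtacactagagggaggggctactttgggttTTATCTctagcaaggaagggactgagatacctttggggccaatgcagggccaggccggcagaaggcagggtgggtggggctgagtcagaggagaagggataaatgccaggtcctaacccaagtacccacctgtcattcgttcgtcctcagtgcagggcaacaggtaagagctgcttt
Of 24 red cell list genes that were higher in RPMI8226 and had a window, 13 held a match in at least 1 window (54.2%), and of 32 lower or uncalled ones 9 did (28.1%), whereas 19.4% of all 27305 genes did. Of single windows, 16.3% of 35116 held one. A match is a run of letters and not a measured site. Genes with several windows had more chances to hold one, and neither the gap between these shares nor a part of GATA factors in the line differences was tested.

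DNA replication and mitosis genes split the lines in opposite ways. Replication genes load the MCM helicase and then fire it in S phase, and mitosis genes peak later and part the chromosomes. Of 30 replication genes 17 were higher in RPMI8226 and 0 lower, with a median of 0.36 against 0.03 on the control arrays. Of 30 mitosis genes 12 were lower and 3 higher, with a median of -0.16, and -0.25 on the control arrays. Of these calls 6 replication genes and 9 mitosis genes held, and the counts fell to 11 without RPMI8226 sponge replicate 1 and to 7 lower without RPMI8226 sponge replicate 2. With the 6 sponge arrays alone, 7 replication genes were higher and 6 mitosis genes lower. The shares called with all arrays were 56.7% and 50%, against 20.6% of all genes. By mean signal, 24 of the 30 replication genes and 25 of the 30 mitosis genes lay above the upper quartile of all genes.

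CDC45, which joins the MCM ring to form the active helicase, read 9.58, 9.50 and 9.40 in RPMI8226 and 8.59, 8.51 and 8.41 in MMS1 (difference 0.99 ± 0.09, SE; adjusted p = 1.82e-05). On the control arrays its difference was 0.07, and the interaction was called (adjusted p = 0.0015). MCM10, an initiation factor, differed by 0.92 and MCM6, a subunit of the ring, by 0.90, against 0.19 and -0.04 on the control arrays. The named mitosis genes had the same sign with both sponges. CDC20, the activator of the anaphase-promoting complex, differed by -0.69 and -0.64, and BUB1, a spindle checkpoint kinase, by 0.86 and 0.61. ASPM, a spindle pole protein, differed by 0.83 and 0.71, and CENPF, a kinetochore protein, by 0.71 and 0.53. So BUB1, ASPM and CENPF were higher in RPMI8226 although 12 of the 15 called members of the list were lower.

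Of 22 G1 cyclins, kinases and inhibitors, 7 were higher and 3 lower, or 45.5% called against 20.6% of all genes. Only 2 were higher without MMS1 sponge replicate 2 or without RPMI8226 sponge replicate 2. CDK6, the kinase partner of D cyclins, read 8.64, 8.54 and 8.44 in RPMI8226 against 7.60, 7.67 and 7.56 in MMS1 (difference 0.93; adjusted p = 5.05e-05). RBL2, the pocket protein p130, and CDKN1A, the inhibitor p21, were lower, at -0.58 and -0.53 (adjusted p = 0.00289 and 0.00682). In the BCL2 family, 2 of 19 were higher and 2 lower, or 21.05% called against 20.6% of all genes. Of these, BCL2L1 (BCL-XL, a survival protein) was -0.68, BNIP3L, which clears mitochondria from maturing red cells, -0.56, and BCL2L2 (BCL-W) 0.47. The fourth, MCL1, was 0.45 on its brightest probe set but 0.11 as the mean over its probe sets. Of 17 p53 genes 4 were higher and 1, CDKN1A, lower, or 29.4% called against 20.6% of all genes, and 3 were lower under quantile normalization. Among the higher were XPC, a DNA damage sensor (1.11; adjusted p = 1.1e-05), and MDM4, an inhibitor of p53 (0.90), as well as PHLDA3.

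Most called genes of protein folding in the endoplasmic reticulum were lower in RPMI8226, whereas most called genes of amino acid supply were higher. Cells answer unfolded protein through ATF6, IRE1 with XBP1, and PERK with ATF4, the first pair raising chaperones and the last raising amino acid transport and synthesis. Of 23 unfolded protein response genes 13 were lower and 3 higher, 8 of the lower ones held, and the median was -0.35, against 0.04 on the control arrays. Of 25 ATF4 and amino acid genes 13 were higher and 1 lower, 9 of the higher ones held, and the median was 0.34, against 0.40 on the control arrays. Without MMS1 sponge replicate 1 the lower count of the first list was 10 and the higher count of the second 13. With all arrays their shares called were 69.6% and 56%, against 20.6% of all genes. By mean signal, 19 of the 23 and 22 of the 25 lay above the upper quartile of all genes.

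HSPA5 (BiP, the main chaperone of the reticulum) read 11.49, 11.14 and 11.06 in MMS1 and 10.17, 10.23 and 10.19 in RPMI8226 (difference -1.03 ± 0.11, SE; adjusted p = 5.24e-05) and 0.25 as a difference on the control arrays. HSP90B1 (GRP94) differed by -0.97, DNAJB9, a cochaperone of BiP, by -1.02 and PDIA6, a disulfide isomerase, by -0.86. The interaction was called and held for HSP90B1 and PDIA6 (adjusted p = 0.00212 and 0.00412). With the miR-16 sponge 1 of 2 HSPA5 probe sets (range -1.03 to 0.20) and 1 of 2 HSP90B1 probe sets (range -0.97 to -0.39) were called. SLC7A11, which imports cystine for glutathione, read 9.29, 9.30 and 9.19 in RPMI8226 and 8.24, 8.03 and 8.03 in MMS1, with 9.47, 9.68 and 9.52 and 7.31, 7.52 and 7.79 on the control arrays. Its line difference was thus smaller with the miR-16 sponge (1.16 against 2.01; interaction adjusted p = 0.015). WARS1, the tryptophan tRNA ligase, TRIB3, a pseudokinase that feeds back on ATF4, and CHAC1, which degrades glutathione, were higher by 0.86, 0.77 and 0.73 (adjusted p from 0.000109 to 0.000215). The transcript of ATF4 itself was uncalled, as were those of XBP1 (0.27; adjusted p = 0.0819) and ERN1, which encodes IRE1.

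Every called respiratory chain gene was lower in RPMI8226: 14 of 25 were called lower and 0 higher, 6 held, and the median was -0.33, against -0.07 on the control arrays. The share called was 56%, against 20.6% of all genes, and with the 6 sponge arrays alone 6 were lower. By mean signal, all 25 lay above the upper quartile of all genes. NDUFV2, a subunit of complex I, read 10.75, 10.61 and 10.49 in MMS1 and 9.83, 9.86 and 9.87 in RPMI8226 (difference -0.76; adjusted p = 0.000149) and differed by 0.00 on the control arrays. SDHA, the catalytic subunit of complex II, was lower with either sponge (-0.72 and -0.82). NDUFA1 of complex I and UQCRC1 of complex III differed by -0.52 and -0.47. At 2-fold, 0 genes of this list passed. Of 18 heat shock chaperones 6 were lower, of which 3 held, and 1 was higher; HSPA4, of the HSP110 kind, read 10.09, 9.88 and 9.66 in MMS1 and 9.31, 9.41 and 9.34 in RPMI8226 (difference -0.52; adjusted p = 0.00594) on its brightest probe set. Of its 4 probe sets, 3 were called lower and 1 higher (range -0.61 to 0.41). Of 19 ribosomal protein genes 2 were called higher and 0 lower, and neither held. The share called was 38.9% for the heat shock chaperones and 10.5% for the ribosomal protein genes.

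**Figure D4:**
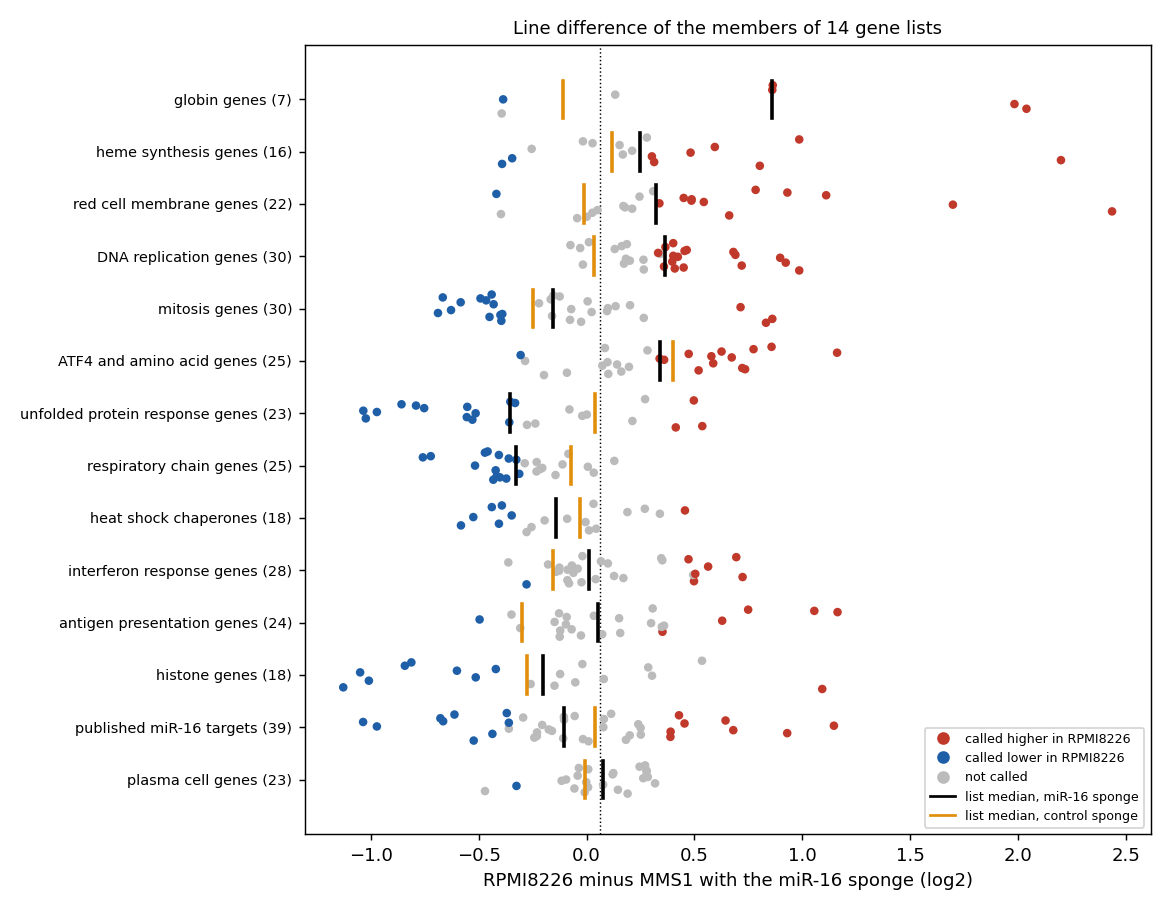
Line difference with the miR-16 sponge (RPMI8226 minus MMS1, log2) of each measured member of 14 gene lists, with the number measured in brackets; red points were called higher in RPMI8226, blue points lower and grey points were not called, black bars are list medians, orange bars the medians of the same genes on the control arrays, and the dotted line is the median of all genes, 0.06. Globin and DNA replication genes have black bars to the right of 0 and orange bars near 0, unfolded protein response and respiratory chain genes have black bars near -0.3, and the bars of the ATF4 list lie side by side.

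Among antiviral and antigen processing genes, the share called was close to that of all genes. Interferons switch on a shared set of antiviral genes, part of which prepares peptides for display by HLA molecules. Of 28 interferon response genes 6 were higher and 1 lower, 5 of the higher ones held, and on the control arrays 0 were called higher and 6 lower. Of 24 antigen presentation genes 5 were higher and 1 lower, 3 higher held, and on the control arrays 0 were higher and 9 lower. In each list 25% were called either way with the miR-16 sponge, against 20.6% of all genes. Removing MMS1 sponge replicate 3, or RPMI8226 sponge replicate 2 or 3, left 3 antigen presentation genes higher. Without 1 sponge array the interferon response genes called higher numbered 5 to 7.

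PSMB9, a subunit of the immunoproteasome, read 8.88, 8.92 and 9.03 in RPMI8226 and 7.98, 7.63 and 7.73 in MMS1 with the miR-16 sponge, and 8.62, 8.54 and 8.60 and 9.59, 9.42 and 9.41 with the control sponge. The line order turned from -0.89 to 1.16 (interaction 2.05; adjusted p = 5.4e-06). TAP1 and TAP2, which form the peptide transporter, differed by 1.06 and 0.75 with the miR-16 sponge and by -0.29 and -0.28 with the control sponge. ISG15, a ubiquitin-like protein induced by interferon, read 8.73, 8.80 and 8.85 against 8.10, 8.31 and 8.28, and its difference also turned, from -0.85 to 0.56 (interaction adjusted p = 8.95e-05). USP18, which removes ISG15 from proteins, differed by 0.69 and IFIH1, the RNA sensor MDA5, by 0.72 (adjusted p = 0.00667 and 0.00072). In each of these 6 genes the MMS1 sponge arrays had the lowest mean of the 4 groups.

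Of 21 NF-kB pathway genes 4 were higher in RPMI8226 and 0 lower, or 19.05% called against 20.6% of all genes, so the list did not stand above the background. IKBKB, the activating kinase, read 6.52, 6.18 and 6.10 against 5.32, 4.41 and 5.63 (difference 1.15; adjusted p = 0.00436), with a wide spread among the MMS1 arrays. RELB and NFKB1, subunits of the factor, were higher by 0.79 and 0.49 (adjusted p = 0.00152 and 0.00918). The chemokine CXCL8, a common target of that factor, went the other way: it read 8.78, 8.59 and 8.66 in MMS1 and 6.81, 6.82 and 6.63 in RPMI8226, a difference of -1.92 (adjusted p = 2.11e-06). LIF, a cytokine of the interleukin 6 family, was lower with either sponge (-0.80 and -1.03).

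Several feedback inhibitors of ERK signalling were lower in RPMI8226. DUSP4 and DUSP1 are phosphatases that switch MAP kinases off, and SPRY2 blocks the pathway nearer the receptors; all are induced by the pathway itself. DUSP4 read 7.11, 6.61 and 6.65 in MMS1 and 5.23, 5.48 and 5.30 in RPMI8226 (difference -1.45; adjusted p = 2.71e-05), SPRY2 7.38, 7.17 and 7.09 and 5.99, 5.85 and 5.60 (difference -1.40; adjusted p = 0.000135). DUSP1 differed by -1.15, whereas the related inhibitors SPRED2 and SPRY4 were higher, at 0.72 and 0.42, the latter a call that did not hold. On the control arrays the differences of DUSP4, SPRY2 and DUSP1 were -0.46, -0.18 and -0.31, each missing the threshold. EGR1, an immediate early factor of the same pathway, was higher in RPMI8226, with 9.92, 9.81 and 10.07 against 8.76, 8.95 and 9.03 (difference 1.02; adjusted p = 0.000135). Over the list of 27 immediate early and ERK feedback genes 5 were higher and 6 lower, so it had no single direction. The share called was 40.7%, against 20.6% of all genes, and 3 were higher without RPMI8226 sponge replicate 1 or 2.

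MYC, a transcription factor that drives growth, read 10.87, 10.93 and 10.92 in RPMI8226 and 10.20, 10.15 and 10.04 in MMS1 with the miR-16 sponge (difference 0.78; adjusted p = 8.71e-05), and 0.83 higher on the control arrays. MXD1, which competes with MYC for its partner MAX, was lower, at -1.14 (adjusted p = 3.08e-05), against -0.06 on the control arrays. Genes of BMP signalling and the ID proteins, which block basic helix-loop-helix factors, also parted. ID2 read 10.20, 9.79 and 9.85 in MMS1 against 8.42, 8.44 and 8.0 in RPMI8226 (difference -1.66), and ID3 5.85, 5.91 and 6.09 against 7.42, 7.37 and 7.40 (difference 1.45; adjusted p = 6.52e-06 and 2.32e-06). The control arrays had the same orders, at -2.81 and 1.64. SMAD9, a transducer of BMP signals, was 0.90 higher in RPMI8226 with the miR-16 sponge and 0.93 with the control sponge.

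Surface and matrix genes were uneven. FN1 (fibronectin, a matrix glycoprotein) read 13.19, 13.13 and 13.09 in RPMI8226 and 11.95, 11.87 and 11.85 in MMS1 with the miR-16 sponge, and 13.12, 13.24 and 13.20 and 10.43, 10.29 and 10.28 with the control sponge, so the gap shrank from 2.85 to 1.25 (interaction adjusted p = 1.19e-05). CD58, the ligand of CD2 on T cells, read 8.04, 7.97 and 7.80 against 6.26, 6.08 and 6.07 (difference 1.80; adjusted p = 4.44e-07), and ITGA9, an integrin subunit, 8.64, 8.74 and 8.53 against 7.24, 6.91 and 7.02 (difference 1.58). Of 4 ITGA9 probe sets 1 was called with the miR-16 sponge (range -0.33 to 1.58). VIM and SPARC, a filament protein and a matrix protein of mesenchymal cells, were lower with either sponge, VIM at -0.92 and -0.95 and SPARC at -1.21 and -0.79. Of 14 epithelial genes 3 were lower and 0 higher, or 21.4% called, near the 20.6% of all genes: KRT19 (-0.92), EPCAM (-0.68) and KRT8 (-0.47). KRT8 lay between 11.39 and 11.99 and KRT18, its partner, between 12.38 and 12.52 on the 6 arrays. Stromal genes were uneven in level over the 6 arrays: COL3A1, DCN and PDGFRB had means of 5.82, 5.83 and 5.05, but COL1A1 had 8.88. Of 20 stromal and endothelial genes 2 were higher and 4 lower, of 18 megakaryocyte genes 0 and 2, and of 23 myeloid and mast cell genes 1 and 2, which is 30%, 11.1% and 13.04% called against 20.6% of all genes. The part of any admixed cell type in these differences was not tested.

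Of 18 histone genes 8 were lower in RPMI8226, of which 6 held, and 1 was higher, or 50% called against 20.6% of all genes. H1-2, a linker histone, read 9.07, 9.08 and 9.05 in MMS1 and 8.0, 7.92 and 7.89 in RPMI8226 (difference -1.13; adjusted p = 7.88e-06), and H2BC12 and H2AC6, core histones, were lower, at -1.05 and -1.01. The exception, H1-10, is a linker histone transcribed with a poly(A) tail in all phases, and it was 1.09 higher (adjusted p = 8.59e-06). Histone copies are near-identical and their probe sets may share signal. Of the oxidative stress genes under NRF2, AKR1C1 and AKR1C2 (steroid and aldehyde reductases, themselves near-identical) were higher by 1.04 and 0.87 and NQO1, a quinone reductase, lower, at -1.18, with 1.19, 1.18 and -0.77 on the control arrays. PBX3, a partner of HOX proteins, turned from -0.90 to 0.84 (interaction adjusted p = 7.08e-05), while HOXB9 and HOXB2 kept their order, HOXB9 at 1.42 and 0.81, HOXB2 at -0.60 and -0.66. TET1, which oxidizes methylcytosine, was 0.92 higher in RPMI8226 (adjusted p = 0.000177).

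Published targets of miR-16 did not take 1 side between the lines. Of 39 measured, 8 were higher in RPMI8226 and 9 lower, or 43.6% called against 20.6% of all genes, with 3 and 5 that held. By mean signal, 24 of the 39 targets lay above the upper quartile of all genes. The part of signal level in the share called was not tested. The count of higher ones was 5 without MMS1 sponge replicate 2 or 3 or without RPMI8226 sponge replicate 1, and that of lower ones 6 without RPMI8226 sponge replicate 2. The median was -0.10 with the miR-16 sponge and 0.04 with the control sponge. PIM1, a survival kinase, read 11.69, 11.50 and 11.40 in MMS1 and 10.48, 10.46 and 10.54 in RPMI8226 (difference -1.03; adjusted p = 2.07e-05), and -0.62 was its difference on the control arrays. HSP90B1, CDK6 and IKBKB of the same list are described above.

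For BCL2, the cyclins and VEGFA, targets often cited, no call on the brightest probe set held in every fit. BCL2, the survival gene whose restraint by miR-16 is most cited, read 6.82, 6.58 and 6.78 in RPMI8226 and 6.52, 6.50 and 6.61 in MMS1, a difference of 0.18 ± 0.10 (SE) that missed the threshold (adjusted p = 0.245). CCND1, CCND3 and CCNE1, cyclins of G1, differed by -0.24, -0.23 and 0.20 (adjusted p = 0.191, 0.118 and 0.265). CCNE1 was higher as the mean over its probe sets (0.47; adjusted p = 0.0167), and CCND3 was lower with brighter probe sets alone (-0.23; adjusted p = 0.0472) and with the trend and robust prior (adjusted p = 0.0219). CCND2, a D cyclin, read 10.15, 10.17 and 10.08 against 9.98, 9.62 and 9.62, and its difference of 0.39 (adjusted p = 0.0294) did not hold in every fit. VEGFA, the vessel growth factor, was 0.43 on its brightest probe set and -0.23 as the mean over its probe sets. Of its 4 probe sets, 1 was called higher and 2 lower (range -0.94 to 0.43). The host transcripts DLEU2 and SMC4 differed by -0.26 and -0.18 (adjusted p = 0.165 and 0.344) on their brightest probe sets, but 1 of the 3 probe sets of SMC4 was called higher (range -0.18 to 0.36), and DLEU2 was called lower under quantile normalization (-0.33; adjusted p = 0.0484). DLEU2 stood at 6.50, 6.22 and 6.33 in RPMI8226 and 6.75, 6.55 and 6.52 in MMS1. Among the microRNA pathway and host genes 3 of 14 were higher in RPMI8226 and 0 lower, or 21.4% called against 20.6% of all genes. AGO4, an Argonaute protein, read 8.57, 8.30 and 8.31 against 6.78, 7.08 and 7.10 (difference 1.41; adjusted p = 8.76e-06) and TNRC6B, the Argonaute partner that silences bound messages, 8.18, 8.11 and 8.28 against 7.05, 7.79 and 7.66 (difference 0.69; adjusted p = 0.00919). AGO4 was also higher on the control arrays, by 0.85 (adjusted p = 0.000692), and TNRC6B was -0.03 there (adjusted p = 0.963). Of 4 AGO4 probe sets 1 was called with the miR-16 sponge (range -0.06 to 1.41).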

How the data were processed

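The values are 1 log2 signal per probe set and array, deposited by the authors for 12 Affymetrix arrays. The values run from a lower bound of 4 (16 on the linear scale) to 14.71 and the array medians from 5.80 to 5.90, but how probes were summarized and arrays normalized is not given in the sources here. Per the labels' protocols, total RNA went through linear amplification before biotin labelling. Neither extraction nor scan batches are given there.

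Of 54675 probe sets, 62 Affymetrix controls were left out. Of all 54675, 41097 named 1 gene in the platform annotation, 1801 several and 11777 none. Those naming 1 gene were updated through RefSeq (GRCh38.p14), where 42 identifiers had no match. They gave 19775 genes, each read on its brightest probe set. Other probe sets of a named gene were often not called with the miR-16 sponge, such as 1 of 2 for ALAS2 (0.41), KRT19 (0.14) and KCNC2 (-0.19). Limma 3.58.1 in R 4.3.3 (lmFit and eBayes, checked on simulated data) was fitted to all 12 arrays with 1 mean per group, leaving 8 residual degrees of freedom. Benjamini-Hochberg adjustment ran over all 54613 probe sets, and a call is an adjusted p under 0.05. Every adjusted p given is limma's, every ± a standard error with 3 arrays a group, and an exact permutation test of 3 against 3 arrays cannot go below 0.1. The interaction is the line difference with the miR-16 sponge minus that with the control sponge. A call held when it passed with the same sign under quantile normalization, among brighter probe sets where tested, with a replicate block, with an intensity trend and robust prior, with the 6 sponge arrays alone, as the mean over probe sets, and without each of the 6 sponge arrays.

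The genes named are the 12 each way with the largest line difference among called genes without overlap, 8 each way called with the same sign for both sponges, 8 each way by interaction, up to 4 called genes of each of 44 lists and a set given always (plasma cell, red cell and miR-16 target genes). The restriction of the list genes to calls that held was added after their values were seen, and the CD3 chains beside CD3D were also chosen then. The members and lists were chosen with earlier results of these data known. Calls that did not hold are given as such. Genes whose level can reveal a donor's sex were not reported. Tables were read with Python 3.11.15, pandas 2.3.3 and numpy 2.4.6.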

Additional observations from a re-analysis of the deposited data

Results flagged for a closer look

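For these genes the line difference with the miR-16 sponge was not the one with the control sponge: the interaction, RPMI8226 minus MMS1 with the miR-16 sponge minus the same with the control sponge, passed limma's test at an adjusted p under 0.05 and in every alternative fit run. With 5.9% of all genes called for the interaction, they are a choice among many. Values are log2.

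Among red cell genes the interaction was positive for ALAS2 at 2.80, HBZ at 1.92, ERMAP at 1.79, KLF1 at 1.70, SPTB at 1.18 and HBQ1 at 1.07. It was negative for CD36 at -2.24 and for CA2, a carbonic anhydrase, at -1.97.

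Genes that differed between the lines with the control sponge and came together or turned with the miR-16 sponge gave positive values: TEX19 at 5.88, MEG3 at 4.48, EXOC6B at 4.43, MFNG at 3.80, RAP1A at 3.53, CHMP6 at 3.12, PLA2G2A at 2.93 and PBX3 at 1.74. LAPTM5 at 2.00, FYB1 at 3.01 and ID2 at 1.15 kept their order with a smaller gap on the sponge arrays. The values of MEIOC (2.63), XNDC1N (1.73), CD58 (1.11) and APLNR (0.87) were positive with a wider gap on the sponge arrays.

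The genes that were high on the MMS1 sponge arrays gave the negative values of largest size: CD3D at -5.74, KCNC2 at -5.43, SOSTDC1 at -5.24, CALB1 at -4.71, ANXA1 at -4.68, MUC19 at -4.38, NLRP7 at -4.37, PRG2 at -4.18 and CXCL8 at -3.10. KRT8 stood at -2.86, RAB27B at -2.79, NMU at -1.93, TMSB4X at -1.64, FN1 at -1.60 and EPCAM at -0.90. The cancer testis gene MAGEB1 stood at -1.15.

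In the interferon and antigen lists the values were 2.05 for PSMB9, 1.41 for ISG15, 1.34 for TAP1, 1.17 for USP18 and 1.03 for TAP2. In replication and damage genes they were 1.03 for XPC, 0.93 for MCM6, 0.91 for CDC45 and 0.74 for MCM10, and for the histone H1-10 0.80. In folding and supply genes they were -1.16 for HSP90B1, -0.90 for PDIA6, -0.85 for SLC7A11, -0.76 for HSPA4 (a heat shock protein of the HSP110 kind) and -0.75 for NDUFV2. Among regulators they were -1.22 for SPRY2, -1.08 for MXD1 and -0.99 for DUSP4. No group of arrays here holds 4 or more members, so single arrays were not judged for standing apart gene by gene.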

How the results depend on the processing

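The alternatives run kept the direction of the named genes' called differences, except for VEGFA, which reversed to -0.23 as the mean over probe sets. With the 6 sponge arrays alone, 1517 genes were higher and 1066 lower, with 3515 probe sets higher. With all 12 arrays, calls of at least 2-fold were 226 and 152. Leaving out 1 array gave 1636 to 2378 genes higher and 1188 to 1579 lower with the miR-16 sponge. On the control arrays it gave 790 to 991 genes higher and 462 to 567 lower (probe sets 1763 to 2275 and 901 to 1207). For the interaction it gave 353 to 612 genes higher and 397 to 684 lower (probe sets 690 to 1242 and 1079 to 1813). Brighter probe sets alone gave 921 and 1105 interaction genes (1742 probe sets higher), and the trend with a robust prior 912 and 1208 (1782 and 2867 probe sets). The cause was not tested. Quantile normalization gave 2310 genes higher and 1982 lower. Same-numbered arrays were not paired: correlations of their residuals were -0.075 to 0.058. With the replicate block 2198 genes were higher and 1517 lower, and for the interaction 414 and 480. Of the named genes' values, 3975 kept their direction and side of the threshold, 254 lost it and 11 gained it. A value at the lower bound of 4 gives only a bound, which limits MEIOC and SOSTDC1, and 3 arrays a group limit the rest.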
